A study of Mus musculus with 3 samples.

Results

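Antisense non-coding RNA loci are genes annotated on the strand opposite to another gene, most often a protein-coding one. The loci described here carried at least 1 transcript of biotype antisense in the GENCODE M21 annotation and had a TPM (an abundance corrected for transcript length and library size) of 1 or more in the gene table of all 3 libraries. Of 3088 such annotated loci, 702 met this minimum, which is 22.7%. Airn, Kcnq1ot1 and Tsix were left out. The annotation types 655 of the 702 genes as antisense and 47 as processed transcripts. The loci were thus selected on their TPM, so their levels are given as a description with no test.

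The study sequenced total RNA, after removal of ribosomal RNA, from the chromatin fraction of macrophages, primary cells that the labels describe as bone marrow derived and of the mouse strain C57BL/6J. All 3 libraries came from cells that had received Lipid A, the part of bacterial lipopolysaccharide sensed by the receptor TLR4, at 100 ng/ml for 10 min. They formed 1 group of 3 biological replicates, with no unstimulated cells, and the labels give no age or sex. Starting RNA was 1 µg for replicate 1, 250 ng for replicate 2 and 500 ng for replicate 3, so amount and replicate cannot be told apart, and a shared donor entry means that the spread between libraries may be technical.

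Antisense transcription can arise from a promoter shared with a neighbouring gene and read away from it, or from a start inside the body of the opposite gene. Its products range from unstable RNAs that the nuclear exosome removes soon after synthesis to spliced, stable RNAs such as Tug1. Some are hosts of small RNAs cut from their introns or exons, and some act on the gene they face. RNA bound to chromatin holds much RNA still being made, so both short-lived antisense RNA and unspliced sense RNA are represented in it.

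The estimated counts on annotated genes were 15698066, 16005795 and 14386725 for replicates 1, 2 and 3. The labelled cell type was checked on macrophage markers, of which 20 of 20 were at TPM 1 or more in every library. None of the 5 T cell, 5 B cell, 6 neutrophil, 5 fibroblast and 5 mast cell markers reached that level in all 3, and among 5 erythroid markers Alas2 alone did, while Hba-a1 and Hbb-bt were listed at 0. All 24 nuclear exosome and adaptor genes found and all 18 transcription termination genes found were at TPM 1 or more in every library. The median TPM was 13.5 ± 0.725 (SD, n = 3) for the first list and 20.7 ± 5.52 (SD, n = 3) for the second.

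The sequences at the starts of the loci show the settings in which the reads were found. RefSeq (build GRCm38.p6) listed a start window for 254 of the 702 loci by symbol, chromosome and strand, and for 143 its start lay within 50 bases of the GENCODE start. Each window runs from 250 bases before to 50 bases after the start. Printed here are F630028O10Rik, the locus of highest level, then the 3 highest loci that start within 1 kb of the start of an opposite-strand gene (head-to-head), then the 3 highest that start inside an opposite-strand gene, among loci whose window touches no annotated UTR. Capitals mark matches, on either strand, to 5 short motifs, which are TATAAA, the TATA box, then GGGCGG, known as the GC box, then CCAAT, the CCAAT box, then TGANTCA, a motif of the AP-1 type, and last GAGGAAG, a motif of the PU.1 type. The windows are on the plus strand at chrX:96239676-96239975 for F630028O10Rik, chr8:77516806-77517105 for 0610038B21Rik and chr14:50870046-50870345 for Gm26782. They are on the minus strand at chr15:6654254-6654553 for Gm2245, chr10:22302789-22303088 for Gm26740, chr5:144256106-144256405 for 2900089D17Rik and chr14:22542749-22543048 for 4930405A10Rik.
F630028O10Rik: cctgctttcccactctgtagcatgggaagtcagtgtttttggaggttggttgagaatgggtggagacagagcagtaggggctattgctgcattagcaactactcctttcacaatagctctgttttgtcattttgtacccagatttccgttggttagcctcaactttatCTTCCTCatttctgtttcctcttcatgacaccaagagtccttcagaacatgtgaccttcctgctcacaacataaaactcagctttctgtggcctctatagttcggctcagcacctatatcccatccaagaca
0610038B21Rik: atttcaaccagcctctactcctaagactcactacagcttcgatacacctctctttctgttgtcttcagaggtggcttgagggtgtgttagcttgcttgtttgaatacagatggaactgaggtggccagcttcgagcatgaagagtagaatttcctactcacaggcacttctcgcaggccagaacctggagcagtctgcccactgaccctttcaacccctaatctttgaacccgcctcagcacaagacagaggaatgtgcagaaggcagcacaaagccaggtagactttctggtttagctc
Gm2245: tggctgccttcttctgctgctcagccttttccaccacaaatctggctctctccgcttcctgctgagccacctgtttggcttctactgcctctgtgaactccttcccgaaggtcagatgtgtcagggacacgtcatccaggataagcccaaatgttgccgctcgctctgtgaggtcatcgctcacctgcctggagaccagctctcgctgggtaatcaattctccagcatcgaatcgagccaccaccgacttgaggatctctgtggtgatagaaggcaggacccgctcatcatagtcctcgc
Gm26782: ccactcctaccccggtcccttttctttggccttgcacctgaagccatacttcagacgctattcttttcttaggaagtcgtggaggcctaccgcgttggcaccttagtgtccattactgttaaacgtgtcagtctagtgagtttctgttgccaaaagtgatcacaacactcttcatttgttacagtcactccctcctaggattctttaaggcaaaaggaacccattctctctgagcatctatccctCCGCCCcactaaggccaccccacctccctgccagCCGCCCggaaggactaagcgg
Gm26740: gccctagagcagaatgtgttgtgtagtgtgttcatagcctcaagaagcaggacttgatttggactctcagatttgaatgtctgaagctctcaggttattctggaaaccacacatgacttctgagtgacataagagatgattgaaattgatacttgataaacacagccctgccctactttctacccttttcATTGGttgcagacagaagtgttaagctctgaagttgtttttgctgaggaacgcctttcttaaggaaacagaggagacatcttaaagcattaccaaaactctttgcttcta
2900089D17Rik: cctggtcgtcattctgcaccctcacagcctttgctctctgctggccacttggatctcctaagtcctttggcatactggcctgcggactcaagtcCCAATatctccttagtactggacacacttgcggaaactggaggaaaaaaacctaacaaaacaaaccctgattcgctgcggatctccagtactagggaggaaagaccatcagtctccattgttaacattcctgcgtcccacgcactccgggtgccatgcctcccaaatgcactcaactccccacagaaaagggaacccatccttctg
4930405A10Rik: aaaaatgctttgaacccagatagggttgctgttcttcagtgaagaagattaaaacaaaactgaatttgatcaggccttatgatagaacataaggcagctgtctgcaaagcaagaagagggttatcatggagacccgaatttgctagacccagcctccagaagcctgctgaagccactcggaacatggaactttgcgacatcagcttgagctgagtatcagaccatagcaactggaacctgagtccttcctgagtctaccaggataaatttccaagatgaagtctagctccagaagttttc

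F630028O10Rik has 1 GAGGAAG match and 2 CG pairs in its window. Gm26782 carries 2 GGGCGG matches, while Gm26740 and 2900089D17Rik carry 1 CCAAT match each. The windows of 0610038B21Rik, Gm2245 and 4930405A10Rik hold none of the 5 motifs, which says only that these letters are not in these 300 bases. Over the 143 windows, GGGCGG was present in 39.2%, against 35.7% of all 32851 RefSeq windows of the same length. The 52 head-to-head windows held it in 63.5% and the 79 windows inside an opposite gene in 24.1%. CG pairs followed the same order, with a median of 18 per window at head-to-head starts, 5 at starts inside an opposite gene and 7 over all RefSeq windows. TATAAA was found in 7.69% of the 143 windows and 13.6% of all windows, CCAAT in 31.5% and 37.4%, TGANTCA in 8.39% and 7.81%, and GAGGAAG in 12.6% and 13.6%.

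F630028O10Rik is also the annotated host of Mir223, a microRNA gene of the myeloid lineage, so its mature products are shown with the seed (bases 2 to 8) in capitals. They lie on the plus strand at chrX:96242842-96242864 for the 5p arm and chrX:96242884-96242905 for the 3p arm.
mmu-miR-223-5p: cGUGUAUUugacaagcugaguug
mmu-miR-223-3p: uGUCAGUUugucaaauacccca

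At many of these loci some reads were of uncertain assignment, for most as a small part of the count. The authors' gene table gives for each gene a standard deviation of its count that comes from uncertain assignment of reads. Among the 673 loci that share no exon base with a same-strand gene, this value was above 0 in 3 of 246 whose exons lie clear of opposite-strand exons. It was above 0 in 37 of 103 loci with up to 10% of their exon bases on opposite-strand exons, in 206 of 265 with 10 to 50%, in 44 of 47 with 50 to 90% and in 12 of 12 with over 90%. The median of this deviation was 1.15% of the count in the 10 to 50% class, 7.54% in the 50 to 90% class and 13.1% in the class over 90%. Over all 702 loci its median was 0% of the count, and it was over 20% of the count in 7 loci. For the loci in the upper classes the only annotated exons on the same bases were on the other strand. Whether the uncertain reads lay on these shared bases or also matched other places in the genome was not tested. How the counting handled strand is not stated by the labels or files used here. A level below is therefore a number of reads placed on the exons of a locus, and reads of the opposite gene may be among them.

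**Figure D1:**
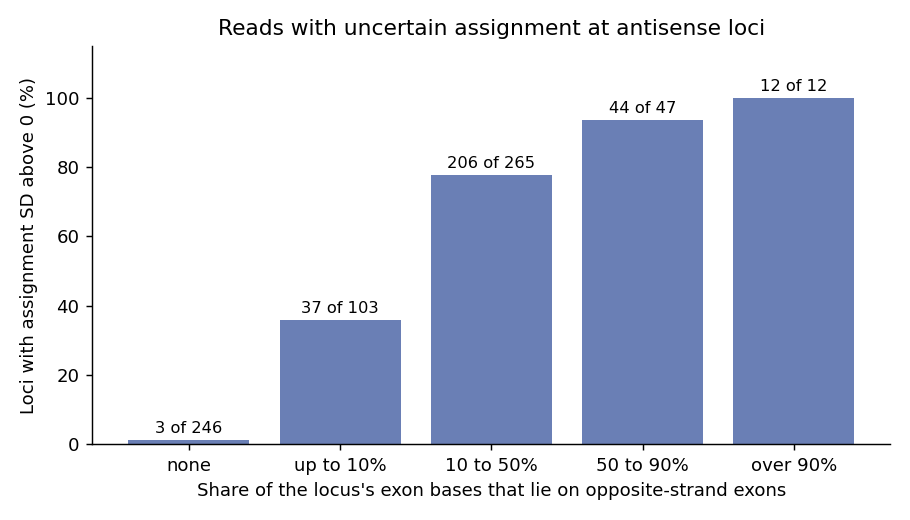
Share of antisense loci (y axis, percent) whose count carried an assignment standard deviation above 0 in at least 1 library, by the share of exon bases that lie on opposite-strand exons (x axis), for the 673 loci without same-strand exon overlap. The bars climb from 3 of 246 loci without such overlap to 12 of 12 loci with over 90%.

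Most loci were at low levels. The median TPM over the 702 loci was 4.11, 4.06 and 3.17 in replicates 1, 2 and 3, and the mean of these medians was 3.78 ± 0.530 (SD, n = 3). The minimum of 1 TPM bounds these values from below, and 112 loci had a mean under 2 TPM, 335 from 2 to 5, 154 from 5 to 10, 67 from 10 to 20 and 34 of 20 or more. For scale, the median mean TPM of the 10120 protein-coding genes that met the same minimum was 11.7. The loci held 0.557%, 0.686% and 0.560% of the gene counts of replicates 1, 2 and 3. Their median mean count was 57, and 91 loci had fewer than 10 counts in at least 1 library. A level sums all transcripts of a gene, and in 658 loci over 99% of the TPM was in transcripts of biotype antisense, while in 19 it was under 50%. The interval that the authors deposited for each TPM lay at 1 or more in all 3 libraries for 523 of the 702.

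Loci at the edge of the minimum rested on few reads. Just inside it were Gm15898, with TPM of 1.00, 1.15 and 1.31 in replicates 1, 2 and 3, and D830025C05Rik, with 1.71, 1.17 and 1.00. Gm48250 had 1.00, 2.21 and 1.60, and Gm45095 had 3.22, 1.10 and 1.01 on a mean of 1.67 counts. Just outside were 2610204G07Rik, Gm17092 and Gm16853, each with a lowest value of 0.99, and Gm28809, with a lowest value of 0.98. The lowest values of both sets differ by less than the spread between libraries of each locus.

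Antisense loci were found on 20 chromosomes. Chromosome 7 held 55, chromosome 1 held 49, chromosomes 11 and 17 held 45 each, and chromosome X held 8. These counts were not set against the annotated antisense loci of each chromosome, so they show no excess or lack on any. The 688 loci with an opposite-strand partner, taken as the gene with the longest body overlap or otherwise the nearest start within 5 kb, faced 643 different genes. Arhgap10, a GTPase-activating protein gene, faced 4 of the loci, and Ano6, Fmn1, Lrmda and Zbtb20 faced 3 each, so members of such sets share a host.

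F630028O10Rik (chrX:96239926-96243636, plus strand, mm10) was the highest locus by a wide margin. Its TPM was 125, 158 and 83.5 in replicates 1, 2 and 3, or 122 ± 37.3 (SD, n = 3). No opposite-strand gene overlaps it or starts within 5 kb of it, so opposite-strand reads of an annotated neighbour do not enter its value. Mir223 lies within it on the same strand.

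B230319C09Rik (chr6:83441755-83448322, plus strand) lies inside Tet3, the gene of an enzyme that oxidises methylcytosine. Its TPM was 67.6, 60.5 and 45.7 in replicates 1, 2 and 3, of which 55.2% was in transcripts of biotype antisense. Gm7480 (chr14:22032086-22036103, minus strand), inside Lrmda, had 60.6, 46.5 and 42.3. AC119228.1 (chr19:29373417-29384471, minus strand) faces Cd274, which encodes the checkpoint ligand PD-L1, and had 51.0, 48.5 and 27.5. Cd274 itself was at a mean TPM of 44.2 ± 8.02 (SD, n = 3), within the range of the antisense locus.

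Gm40578 (chr12:111450405-111500840, minus strand) overlaps Tnfaip2, a gene induced by tumour necrosis factor, and had 65.9, 35.3 and 24.3 TPM. Zeb2os (chr2:45110707-45114087, plus strand) starts inside Zeb2, a zinc finger transcription factor gene, 6688 bases from its start, and had 62.2, 32.5 and 29.5 TPM. For both, replicate 1 stood above the other libraries. Tug1 (chr11:3639785-3649673, minus strand), a long non-coding RNA that starts 482 bases from the start of Morc2a, had 45.9, 40.5 and 37.8 TPM. Morc2a was at 42.4 ± 7.69 (SD, n = 3), so the 2 divergent genes did not differ beyond their spread.

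Gm46411 (chr13:37793382-37799790) and Gm45479 (chr8:46763251-46764973) lie inside Rreb1 and Irf2, both transcription factor genes. Gm46411 had 44.9, 40.5 and 34.6 TPM and Gm45479 had 40.5, 39.3 and 27.3. Gm45606 (chr11:75530277-75533071), opposite the amino acid transporter gene Slc43a2, had 48.0, 30.6 and 27.3. Gm26740 (chr10:22187013-22302835) had 37.7, 35.2 and 27.4, and 4933423P22Rik (chr2:90479236-90488425), inside the receptor phosphatase gene Ptprj, had 34.3, 34.4 and 30.5. Of these 12 loci, 9 start inside an opposite-strand gene, and 6 have a partner but no exon base on an opposite-strand exon. Together the 12 held 13.2% of the summed mean TPM of the 702 loci.

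**Figure D2:**
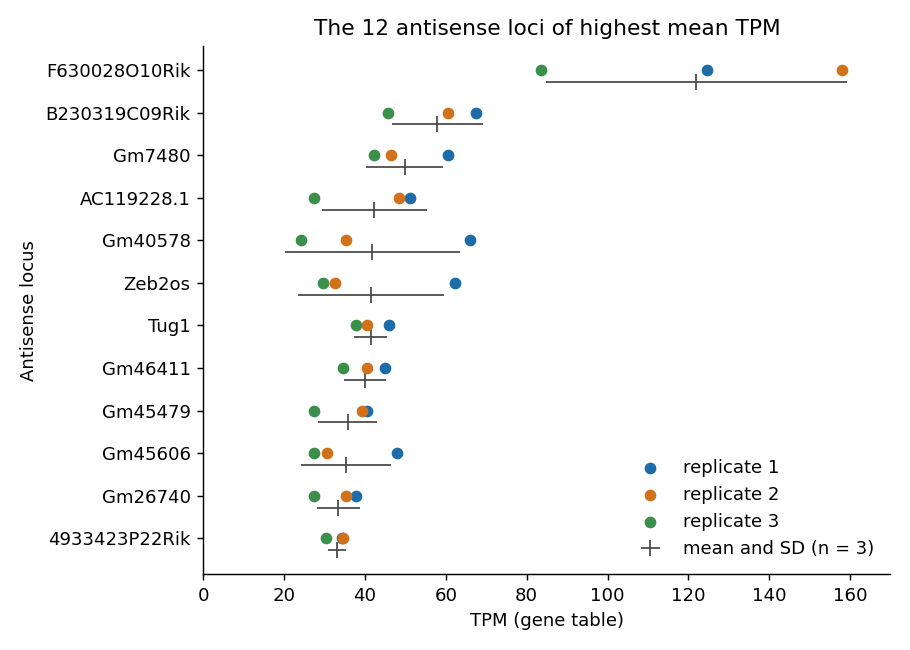
TPM in the gene table (x axis) of the 12 antisense loci of highest mean TPM (y axis), with a point for each of the 3 libraries and the mean with its SD below. F630028O10Rik spans 83.5 to 158 and lies clear of the next locus, while the lowest point of all 12 loci is replicate 3.

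Replicate 3 gave the lowest TPM for 483 of the 702 loci, and this followed the scale of the library. On the TPM scale, the median log2 ratio of replicate 3 to the mean of the others was −0.40 over the loci and −0.39 over all 13547 genes at the minimum, and for replicate 1 it was 0.20 and 0.32. On CPM, counts normalized to library size, with TMM scaling (scaled CPM), replicate 3 was lowest for 229 loci, replicate 2 for 169 and replicate 1 for 304. Comparisons between libraries below use scaled CPM, and TPM is used to compare genes within a library.

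A start inside the body of an opposite-strand gene was the commonest arrangement. It applied to 470 of the 702 loci, or 67.0% (95% exact binomial interval 63.3 to 70.4%), against 61.7% (59.7 to 63.6%) of the 2386 antisense loci below the minimum. The 2 intervals overlap. They treat loci as independent, although 84 of the 702 share a partner, so they are a description and no test. Head-to-head starts accounted for 163 loci, or 23.2%, against 24.0%. A further 53 loci overlapped an opposite gene without either arrangement (7.55% against 10.1%), and 16 neither overlapped an opposite-strand gene nor started head-to-head with one (2.28% against 4.23%). In all, 681 loci overlapped the body of an opposite-strand gene and 449 overlapped its exons or those of another opposite-strand gene. Exon lengths differed more, with a median of 1305 bases over the loci and 889 over the others, and single-exon loci made up 8.55% and 5.32%.

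What set the loci with reads apart most was the level of the gene they face. The choice of the loci used their own TPM, which may include reads of the partner, so partner level may not be independent of that choice. The partner was at TPM 1 or more in all 3 libraries for 631 of the 702 loci, or 89.9%, and for 836 of the 2386 others, or 35.0%. The median partner TPM was 20.4 for the loci and 0.23 for the others. Counted over every opposite-strand gene that overlaps a locus or starts within 5 kb of it, 1732 antisense loci had such a gene at TPM 1 or more in at least 1 library, and 39.1% of them were among the 702. Of the 1356 antisense loci without one, 24 were, or 1.77%. Pairs share libraries and, in part, exon bases, so correlations over them are a description. Across all 2998 antisense loci with a partner, Pearson r between the log2 levels was 0.65 and Spearman rho was 0.71. Within the 688 pairs of the loci with reads these were 0.36 and 0.38. How far reads of the partner make up the counts of the loci was not tested.

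Loci that lie wholly inside introns show the same relation without any shared exon base. There are 809 antisense loci of this kind, all levels included, inside a protein-coding gene. Among those with a host gene under 1 TPM, 3 of 404 reached the minimum in all 3 libraries, or 0.743%. The share was 29.0% of 183 with a host from 1 to 10 TPM, 61.5% of 156 with a host from 10 to 50 TPM and 78.8% of 66 with a host of 50 TPM or more. The median TPM of the locus was 0, 0.553 ± 0.0643, 2.61 ± 0.375 and 6.23 ± 1.17 in these classes (SD of the library medians, n = 3).

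Sense-intronic loci, which lie inside introns on the same strand as the host, served as a comparison. For the same classes of host level their median TPM was 0, 1.01 ± 0.250, 4.23 ± 0.540 and 4.08 ± 0.750 (SD of the library medians, n = 3). They had more TPM than antisense loci in both middle classes and less in the highest, by amounts larger than the spread of the library medians. The order of the class from 10 to 50 TPM depended on the table, since the second transcript table gave medians of 7.29 ± 1.04 for antisense and 5.89 ± 0.824 for sense-intronic loci there (SD of the library medians, n = 3). Their log2 level and that of the host had a Pearson r of 0.66 over 307 loci, against 0.73 over the 809 antisense loci. Sense-intronic loci were more often unspliced, with a single exon in 55.0% of those with a host from 10 to 50 TPM, against 4.49% of the antisense loci there. Reads of unspliced host RNA fall within introns whatever the strand of the locus annotated there, and their part in the counts was not tested.

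**Figure D3:**
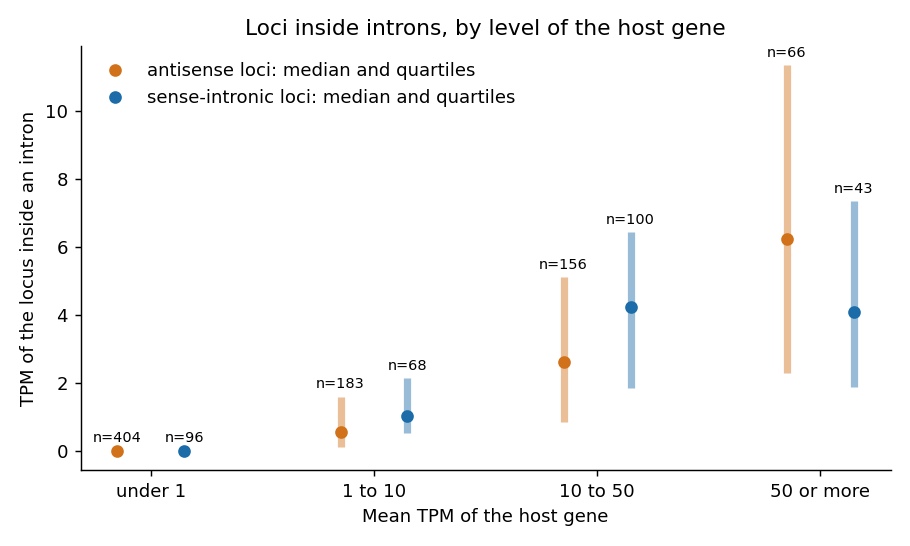
Median TPM (points) and quartiles (bars) over loci wholly inside introns (y axis), by mean TPM of the host gene (x axis), for antisense loci and for sense-intronic loci. Both kinds have a median of 0 where the host is under 1 TPM and higher medians where the host is higher, with 6.23 for antisense and 4.08 for sense-intronic loci at hosts of 50 TPM or more.

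The 24 loci without an opposite-strand gene at TPM 1 or more face no annotated gene with appreciable reads. They had a median mean TPM of 3.86, and 8 had a mean of 5 or more. After F630028O10Rik came Gm15859 (chr16:4729869-4730809), with TPM of 18.03, 21.2 and 19.7 in replicates 1, 2 and 3. Gm15445 (chr1:135152963-135153806) had 15.1, 15.5 and 20.1. On scaled CPM, Gm15859 had 8.31, 10.4 and 12.1 and Gm15445 had 5.47, 5.87 and 9.60, so both were highest in replicate 3. 4930430E12Rik (chr4:6352105-6357530) had TPM of 20.3, 7.35 and 8.79, a scale on which its libraries are not compared here. Gm11455 had a mean of 6.16 ± 2.14, Gm10863 of 6.01 ± 0.514, Gm14286 of 5.38 ± 0.899 and Gm17056 of 5.24 ± 1.11 (SD, n = 3). Gm10863 faces Sox10, a neural crest transcription factor gene, and Gm17056 faces Lsmem1, neither of which exceeded 0.17 TPM in any library. These loci were singled out after their values were seen.

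Compared pair by pair, antisense loci were mostly below their partners. On the scale of log2(TPM + 1), the median difference of locus minus partner over 688 pairs was −2.14, −1.85 and −1.94 in replicates 1, 2 and 3, with a mean of −1.97 ± 0.152 (SD, n = 3). The locus was below its partner in all 3 libraries in 564 pairs, above it in all 3 in 83, and of mixed order in 41. The median was −1.57 ± 0.0994 for the 163 head-to-head loci and −2.10 ± 0.172 for the 470 that start inside the opposite gene (SD, n = 3). The locus was above its partner in all 3 libraries for 32 of the head-to-head loci and for 41 of those with a start inside. The partner is the gene of longest overlap, which need not be the gene whose start is near. E130307A14Rik, a head-to-head locus, starts 111 bases from the nearest opposite-strand start but 119073 bases into its partner Traf3ip2. The values by arrangement are therefore not levels of divergent gene pairs throughout. The minimum applied to the locus and not to the partner, which limits how far below the partner a locus can be.

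**Figure D4:**
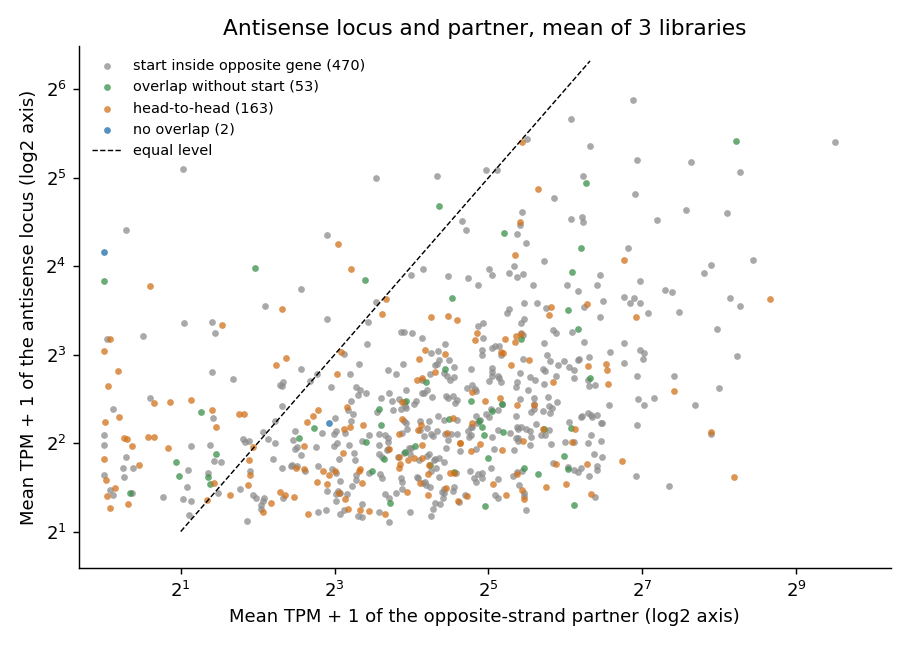
Mean TPM + 1 of each antisense locus (y axis, log2) against that of its opposite-strand partner (x axis, log2), with 1 point per pair for 688 pairs, coloured by arrangement, and a dashed line of equal level. Most points lie below the line, and the locus was lower in all 3 libraries in 564 pairs.

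Among partners at TPM 1 or more in every library, the largest excess of a locus was at 1810032O08Rik, opposite the sialyltransferase gene St6galnac2. It had 19.3, 14.4 and 10.8 TPM in replicates 1, 2 and 3, against 2.90 ± 0.493 (SD, n = 3) for its partner, a log2 difference of 1.99. This locus hosts Snord1a, Snord1b and Snord1c, which guide modification of ribosomal RNA. Gm26947, which faces the non-coding gene Pldi, and B930036N10Rik, which starts 633 bases from Alyref2, followed with log2 differences of 1.81 and 1.77, and Gm30329, opposite 1700011L22Rik, with 1.48. Gm26740, one of the 12 highest loci, lies inside Raet1e, the gene of a ligand of the lymphocyte receptor NKG2D. Raet1e was at 1.05 ± 0.400 TPM (SD, n = 3), so the log2 difference there was 4.08. It rests on the choice of Raet1e by length of overlap, since 5 opposite-strand genes overlap Gm26740 or start near it and the highest of them reached 31.4 TPM, close to the locus itself.

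The opposite end held loci of low level that face abundant genes. E530011L22Rik had TPM of 2.03, 2.55 and 1.60 opposite Nktr, whose product is a cyclophilin-related protein and which was at 292 ± 54.0 (SD, n = 3), a log2 difference of −6.58. Gm20652 had 2.35, 1.47 and 1.78 opposite Arhgef2, on a mean of 5 counts. Its log2 difference was −5.80. Gm37305 and Gm44702, opposite the cyclin gene Ccnl1 and the splicing factor gene Hnrnpl, both had a log2 difference of −5.79. In the gene table each of the 4 loci, picked for the lowest differences, was below its partner in every library by a wide margin. The values of locus and partner did not overlap there. The second transcript table gave Gm20652 a mean TPM of 15.3, against 1.87 in the gene table, and Gm44702 12.6, against 3.28. E530011L22Rik and Gm37305 had 2.98 and 5.01 in it, against 2.06 and 3.37. The levels of these loci thus depend on the quantification.

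Of the 702 loci, 56 are named for the gene they face by the suffix os (opposite strand), out of 268 such names among all antisense loci. The gene named was at TPM 1 or more in every library for 53 of the 56. The antisense locus was below it in all 3 libraries in 47 pairs and above it in all 3 in 8, and the median log2 difference was −2.28. After Zeb2os came Zmiz1os1, with 28.3, 15.4 and 17.0 TPM against a mean of 98.4 ± 15.1 for the transcriptional coregulator gene Zmiz1. Dnmt3aos had 18.2, 14.9 and 12.6 TPM against 237 ± 19.6 for the DNA methyltransferase gene Dnmt3a (SD, n = 3). Rab10os and Mypopos were above the gene they are named for, with 13.3 ± 3.65 against 9.56 ± 2.15 TPM for Rab10 and 12.4 ± 3.30 against 4.92 ± 0.471 TPM for Mypop (SD, n = 3). For Rab10os the ranges of the 2 genes overlap between libraries, although it was the higher one within each.

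Some genes of the early response to Lipid A face an antisense locus with reads. Of 30 immediate early genes, 35 primary NF-kB targets, 31 interferon-stimulated genes, 27 genes of TLR4 signalling and 20 macrophage identity genes, the partner rule gave 0, 2, 0, 2 and 1 of the 702 loci, out of 2, 7, 2, 6 and 3 annotated antisense loci. Together these are 5 of 20, a share near the 22.7% over all antisense loci. When any opposite-strand gene that overlaps or starts within 5 kb was counted, a rule added after the data were seen, 7 loci were found in place of 5. By list these were 1, 3, 0, 2 and 1, out of 5, 9, 3, 6 and 3 annotated antisense loci, so the wider rule also counted more annotated loci. Without unstimulated cells, no response to Lipid A can be read from these values.

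Junos starts next to Jun, a subunit of the transcription factor AP-1, and had scaled CPM of 2.37, 1.93 and 1.64 in replicates 1, 2 and 3. Jun had 158, 81.9 and 53.0, so both were highest in replicate 1 and lowest in replicate 3. Gm26885 overlaps Pim1, a kinase gene, and had 44.5, 18.6 and 13.8, against 111, 63.4 and 70.3 for Pim1. Gm40578 had 43.0, 24.98 and 21.4, against 680, 425 and 559 for Tnfaip2. In each of these pairs replicate 1 held the highest value of both genes.

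Gm16174, opposite the NF-kB cofactor gene Bcl3, had scaled CPM of 1.29, 0.581 and 0.517 on a mean of 12.3 counts, against 16.2, 8.92 and 11.4 for Bcl3. Gm28913 and Gm28914 both lie inside Ikbke, a kinase gene of antiviral signalling, so they share a host. Gm28914 had 6.57, 4.54 and 3.62 and Gm28913 had 5.80, 4.83 and 4.51, against 616, 466 and 550 for Ikbke. Gm14011 was lowest in replicate 1 in the gene table, on few counts. It lies inside Mertk, the gene of a receptor for the uptake of dying cells. Its scaled CPM was 0.129, 0.989 and 0.887 on 2, 17 and 12 counts (mean 10.3), lowest in replicate 1, while Mertk had 551, 475 and 585. The TPM of Gm14011 was 1.34, 11.3 and 7.50 in the gene table. In the second transcript table its TPM was 45.9, 60.2 and 36.3, lowest in replicate 3, so on TPM the order of the libraries differed between the tables.

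The spread between libraries was larger for the loci than for other genes, and their counts were lower. The median coefficient of variation (CV, SD over mean of scaled CPM, n = 3) was 18.8% over the 702 loci, 12.2% over the 10120 protein-coding genes and 13.6% over all 13547 genes at the minimum. At matched counts the gap was smaller. With a mean under 50 counts, the median CV was 25.6% for 322 loci and 21.6% for 719 protein-coding genes. With a mean of 50 to 200 counts, the median CV was 15.9% for 280 loci and 14.9% for 2635 protein-coding genes, and from 200 to 1000 counts it was 13.5% for 86 loci and 11.0% for 4323 genes.

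Relative to the mean of the other libraries, 19 loci were at least 2-fold higher in replicate 1, which is 2.71%, against 1.51% of all genes at the minimum. In replicate 2, 12 loci were 2-fold higher (1.71% against 0.96%), and in replicate 3, 16 were (2.28% against 0.709%). At least 2-fold lower were 26 loci in replicate 1 (3.70% against 1.6%), 15 in replicate 2 (2.14% against 0.982%) and 12 in replicate 3 (1.71% against 1.47%). The shares exceed those of all genes in each case, and the loci have lower counts than most genes, whose part in this was not tested.

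The most even locus with 50 or more mean counts was 1700008J07Rik, which starts 886 bases from Srcap, a chromatin remodeller gene. Its scaled CPM was 7.17, 7.04 and 7.09 in replicates 1, 2 and 3 on a mean of 109 counts. Gm15559 had 4.70, 4.77 and 4.80, and Gm45285, inside Arhgap10, had 6.50, 6.45 and 6.35. Gm26782, whose start window is printed above and which starts 236 bases from the telomerase-associated gene Tep1, had 12.3, 12.4 and 11.99. These loci and the least even ones below are the extremes of 380 loci, ranked on 3 values each. The ranking itself favours such small and large spreads.

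The least even locus with 50 or more mean counts was 1700006J14Rik, with scaled CPM of 3.86, 18.1 and 9.31 in replicates 1, 2 and 3. It lies inside Hmga2, which encodes an architectural chromatin protein. 9230105E05Rik, a second locus inside Hmga2, had 3.35, 13.0 and 7.76. Hmga2 itself had 20.3, 77.4 and 55.0, so all 3 genes of the region were lowest in replicate 1 and highest in replicate 2. Gm26885, described above beside Pim1, and Zbtb11os1, with 6.43, 3.14 and 2.54, were highest in replicate 1 instead.

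Differences between libraries over the loci as a group were small on scaled CPM. The median log2 ratio of a library to the mean of the others was −0.08, 0.06 and −0.03 for replicates 1, 2 and 3 over the 702 loci on scaled CPM and 0.20, 0.14 and −0.40 on TPM. The values on scaled CPM have an SD of 0.071, which comes from these same values and so cannot serve as a measure of their error. The median ratio of replicate 3 was 0.047 over loci with no exon overlap. Over the 589 partners at TPM 1 or more the median ratio was 0.08, −0.14 and 0.06 for replicates 1, 2 and 3. Over protein-coding genes it was 0.05, −0.09 and 0.02, all on scaled CPM. Higher in replicate 2 than in the others were 400 of 702 loci, 175 of 589 partners and 3744 of 10120 protein-coding genes. Replicate 2 had the least starting RNA, and its part in this was not tested. Pair by pair, over the 631 pairs whose partner was at the minimum, the ratios of locus and partner had a Pearson r of 0.21, 0.19 and 0.15 in replicates 1, 2 and 3, a description over pairs that share a library.

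**Figure D5:**
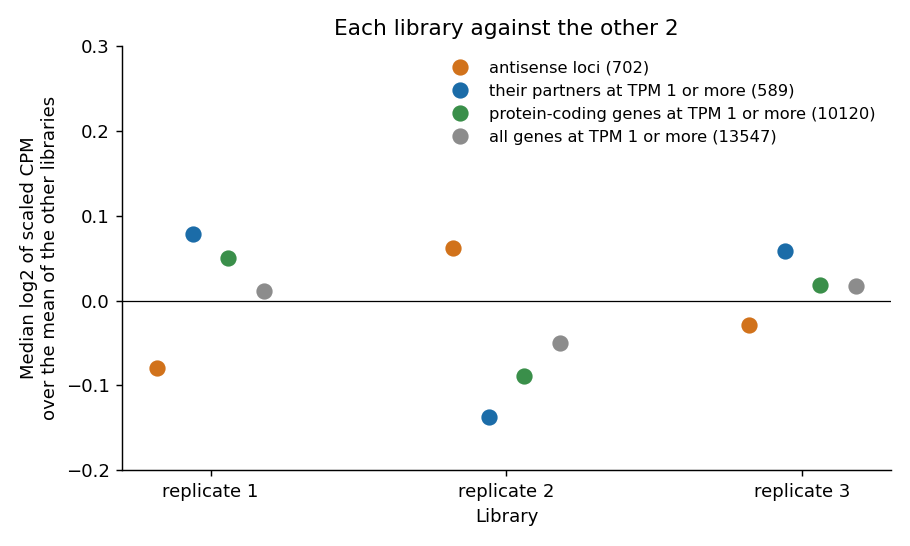
Median log2 ratio of scaled CPM in each library to the mean of the other libraries (y axis) for the 702 antisense loci, their partners, protein-coding genes and all genes at TPM 1 or more (points), by library (x axis). In replicate 2 the antisense loci lie at 0.06 and their partners at −0.14, and in replicates 1 and 3 the order is the other way round.

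The second transcript table, which the authors derived directly from reads, gave a higher TPM to many of the loci. Its total was 24158443, 28244456 and 25007440 estimated counts in replicates 1, 2 and 3. The median TPM of the loci was 6.72 ± 0.505 in it (SD of 3 library medians), and the median of the ratio to the gene table was 1.49, against 1.25 over all genes at the minimum. More than 4-fold higher were 74 loci, or 10.5%, against 3.02% of all genes at the minimum. Across the loci the log2 levels of both tables had a Pearson r of 0.72 and a Spearman rho of 0.69. The median ratio was 1.81 for the 253 loci whose exons lie clear of opposite-strand exons and 1.41 for the 449 others.

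Zeb2os was the clearest case among loci above 10 TPM, with 289 ± 35.1 TPM in the second table and 41.4 ± 18.1 in the gene table (SD, n = 3). Gm44649, inside the scaffold protein gene Iqgap1, had 109 ± 7.14 and 15.8 ± 5.98. 2900089D17Rik, opposite Bri3, had 103 ± 9.86 and 32.9 ± 0.221 (SD, n = 3). The gap between tables exceeded the spread between libraries at each of them, so their level depends on the quantification. F630028O10Rik and Tug1 changed less, to 87.9 and 42.6 TPM. For Zeb2os the order of the libraries changed too, with 283, 327 and 258 TPM for replicates 1, 2 and 3 in the second table.

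By the second table, 686 of the 702 loci were again at TPM 1 or more in all libraries. The 16 that were not had a median of 92.7% of their exon bases on opposite-strand exons, against 9.15% over all the loci. Of the 12 loci with over 90%, 6 had a mean under 1 TPM in it, and 3 of these, Gm47106, Gm47123 and Gm20659, were listed at 0. Why the tables differ at these loci was not tested.

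Small RNA genes lie within some of the loci on the same strand, snoRNA genes in 6 and microRNA genes in 9. Zfas1, which holds Snord12 and starts 81 bases from the start of Znfx1, had TPM of 38.8, 25.4 and 20.8 in replicates 1, 2 and 3. Snhg14, a long transcript that runs opposite Ube3a, the gene of a ubiquitin ligase, holds 208 snoRNA genes and had 11.8, 16.2 and 14.9. Snhg9, which holds Snora78, had 14.6, 3.79 and 3.22 on a mean of 2 counts, so its level was not measured with useful precision. Rab26os holds Snord60 and had 2.61, 4.77 and 5.13 on a mean of 12 counts. The level of Zfas1 came mostly from transcripts of other biotypes, with 10.3% of its TPM in antisense transcripts.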

How the data were processed

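For each library the authors deposited a gene table and a pair of transcript tables made with mm10 and GENCODE M21, per the deposited readme files. The gene table holds expected (estimated) counts, TPM, a count standard deviation from read assignment (column names as RSEM writes them) and TPM interval bounds. The other transcript table used (called the second) was deposited with kallisto-type column names, per the file headers, and its estimated count and TPM columns were summed here per gene. Programs, versions and strand settings are not stated in those files or the labels. The other deposited units are the standard deviation and interval bounds, used as given. The loci, partner lists and rules were chosen with earlier results of these data known.

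Rows naming no annotated gene held 1.16%, 0.459% and 0.351% of the estimated counts and were left out. TMM factors came from edgeR 4.0.16 on counts rounded to whole numbers, with DESeq2 1.42.0 size factors as an alternative, and the ratio calculation was tested on simulated data. No test between conditions was possible with 1 group of 3 libraries, so values are means ± SD (n = 3). A count of 0 allows 3 counts, or 0.191, 0.187 and 0.209 CPM, which covers counting error only. Loci named are the 12 of highest mean TPM, those with a listed partner, the 4 of highest and lowest CV (50 counts or more), the 4 of highest and lowest log2 difference to a partner at TPM 1 or more, and the 4 nearest the minimum on each side. Others were chosen after their values were seen. Motifs and start windows came from RefSeq, GRCm38.p6.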

Additional observations from a re-analysis of the deposited data

How the results depend on the processing

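The number of loci was 464 at a TPM minimum of 2, 190 at 5, 1347 in the second transcript table, 931 at a minimum of 0.5 and 932 with TPM rescaled without short and ribosomal RNA-locus RNAs, and it ranged from 723 to 798 when 1 library was left out. The median log2 difference of locus minus partner was −2.23 with a pseudocount of 0.1, −1.72 over pairs whose exons do not overlap, −1.80 in the second table and −3.16 on CPM, and ranged from −2.04 to −1.89 without 1 library. The median log2 ratio of replicate 1 to the others was 0.20 on TPM and −0.22 over loci with no exon overlap. For replicate 2 it was 0.22 on CPM with no TMM factor, 0.14 on TPM and 0.22 in the second table, and for replicate 3 it was −0.17, −0.40 and −0.15 in the same order and 0.047 over loci with no exon overlap. The median CV was 23.9% on TPM and 15.1% for loci with 50 counts or more, and ranged from 13.5% to 17.2% without 1 library, a setting added after the data were seen. Head-to-head starts made up 10.5% of the loci within 300 bases and 37.2% within 5 kb. Overlap with opposite-strand exons applied to 64.0%. The share of loci with a partner at TPM 1 or more in every library was 93.0% in the second table and 95.2% over any opposite-strand gene that overlaps or starts within 5 kb, both added after the data were seen. Beyond what the settings themselves change, the causes were not tested. In all, 25 alternative values kept within the spread or within 1.5 times the count and 25 moved beyond it, some of each given above. No paired analysis was possible because there is 1 group of libraries. Depth limits the 91 loci with fewer than 10 counts in some library, and unstated strand handling limits the loci that share bases with an opposite gene.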
